A study of Mus musculus with 12 samples.

Results

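Hearts of A2BAR-/- mice that had received no ischemic preconditioning were compared with hearts of wild-type BL6/C57 mice in the same state, 3 arrays against 3. These 6 of the 12 arrays of the study were chosen by the genotype and treatment in their labels, and the comparison is described across all genes and by chromosome position. The A2BAR-/- mice (knockout, KO below) lack the adenosine A2B receptor in the whole animal and were bred in house on the BL6/C57 background. The wild-type (WT) mice carried the same strain label, and the labels describe them in one place as bought from a vendor and in another as littermates of the knockout mice. All mice were male and 12 weeks old, and the tissue of each array was frozen left ventricle. The labels call the control hearts untreated in some fields and sham operated in another. The other 6 arrays, 3 of each genotype, came from hearts after ischemic preconditioning (IP), a series of 4 short coronary occlusions of 5 min, with the tissue taken after 2 h of reperfusion. The labels used here do not state which part of Adora2b was deleted or in what cells the allele was made.

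The A2B receptor is one of the adenosine receptors. It couples to Gs and raises cAMP when extracellular adenosine accumulates, as it does in oxygen-starved tissue, and in heart it has been studied mainly for protection from ischemia. A knockout line carries, beside the deleted gene, whatever stretch of the donor chromosome was kept around it through breeding, and for that reason genes were also examined by their distance from Adora2b.

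Each array measured RNA of bulk ventricle as 1 signal per probe set. Median signals of the control arrays were between 66.5 and 78.2 units, and rank correlations between arrays of the same group were between 0.977 and 0.981 in control hearts, against 0.976 to 0.981 between the genotypes. WT control replicate 3 had no usable value in a run of 1425 probe sets, so that 852 of the 14044 genes tested rest on 2 WT control arrays. The heart muscle genes of the cardiomyocyte list were bright on every control array: their signals summed to between 707020 and 768699 units in KO hearts and to between 692392 and 757197 units in WT hearts over the same 19 genes. Nothing in the labels ties the arrays of a group to different mice. The p-values therefore rest on array-to-array spread that may be technical, and the number of arrays limits their precision. In bulk tissue, fewer cells of a type and less RNA per cell cannot be told apart.

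The targeted gene was dim in control hearts of both genotypes. The brightest probe set of Adora2b read 18.6, 52.0 and 62.6 units in KO control hearts, against 42.1, 71.1 and 72.0 units in WT control hearts. The groups overlapped. The log2 difference was −0.42 ± 0.33 (SE, log2 of signal + 16, limma adjusted p = 0.869), and the exact two-sided permutation p was 0.5, where 3 arrays against 3 allow no value below 0.1. The other 3 probe sets differed by −0.21, −0.40 and −0.53 on the log2 scale and also overlapped between the groups. In IP hearts the brightest probe set read 52.3, 61.5 and 47.7 units in KO, against 206.9, 164.6 and 155.5 units in WT (log2 −1.45 ± 0.33, limma adjusted p = 0.0958). The control arrays therefore gave no separate check of the genotype labels through Adora2b itself. Whether the probes fall inside the deletion is not stated in the labels. Of the other adenosine receptors, Adora1, which couples to Gi and slows the heart, differed by 0.38 ± 0.28 log2 and Adora2a, a Gs-coupled receptor of vessels and leukocytes, by 0.24 ± 0.26 log2, both with overlapping arrays. Adora3 was not among the genes tested.

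Across the genome, 5 of 14044 genes (0.0356%) passed an adjusted p below 0.05 between KO and WT control hearts, and all 5 were lower in KO. They were Pttg1, Cyfip2, the long noncoding RNA 2610507I01Rik, Rab4a and Mrpl55. None passed in the higher direction. At an unadjusted limma p below 0.05 there were 926 genes (6.59%), of which 484 were lower (3.45%) and 442 higher (3.15%) in KO. In 1709 genes (12.2%) the arrays of the 2 genotypes did not overlap, 878 (6.25%) with KO below and 831 (5.92%) with KO above. A difference of at least 2-fold on the log2(signal + 16) scale was seen in 148 genes (1.05%), and 4 of these passed.

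Pttg1 encodes securin, which holds separase inactive until sister chromatids part in mitosis. It read 1605, 1414 and 1555 units in KO control hearts, against 22080, 20870 and 21750 units in WT control hearts. The groups lay far apart and each was tight: the means were 1524 ± 98.8 units in KO and 21570 ± 627 units in WT (SD, n = 3 each). On the log2 scale KO was lower by −3.81 ± 0.08 (SE), or 14-fold (limma adjusted p = 2.65e-13). The second probe set of the gene read 507, 559 and 522 units in KO, against 8179, 6111 and 5361 units in WT, and the third, which was dim, 14.8, 28.1 and 7.10 units in KO, against 257, 229 and 143 units in WT. All 3 probe sets were thus lower in KO without overlap. The gene (Entrez 30939) spans 43263687 to 43269404 on chromosome 11 and Adora2b (Entrez 11541) spans 62065179 to 62082647. The distance was −18.81 Mb, where a negative distance is toward lower coordinates. These positions are those of the authors' deposited table, and the labels name no build for them.

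Cyfip2 encodes a subunit of the WAVE complex, which drives branching of actin filaments, and a partner of the RNA-binding protein FMRP. It read 293, 414 and 639 units in KO control hearts, against 3579, 4600 and 4155 units in WT control hearts. KO was 9.27-fold lower (log2 −3.21 ± 0.24 SE, limma adjusted p = 6.97e-06). A second bright probe set read 159, 171 and 306 units in KO, against 1623, 1822 and 1947 units in WT, and also did not overlap. The gene's other 2 probe sets were below the filter on low signals. Both overlapped: one differed by −1.17 log2, and the other was at 28.6, 34.9 and 30.4 units in KO against 5.05, 58.2 and 27.6 units in WT. The gene (Entrez 76884) starts at 46037281 on chromosome 11, at −15.98 Mb from Adora2b.

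Mrpl55, a protein of the large subunit of the mitochondrial ribosome, read 2638, 2962 and 2657 units in KO control hearts, against 5239, 4554 and 4578 units in WT control hearts. The highest KO array stayed well below the lowest WT array. KO was 1.73-fold lower (log2 −0.79 ± 0.10 SE, limma adjusted p = 0.00191), the smallest change of the 5 genes, and the adjusted p was 0.0609 when the spread was not allowed to vary with signal. The gene (Entrez 67212) spans 59018712 to 59022197 on chromosome 11, at −3.05 Mb from Adora2b. 2610507I01Rik has no position in the authors' table. In RefSeq it is a long noncoding RNA on chromosome 11 with Guk1 as the protein-coding gene just before it and Mrpl55 just after it. It read 25.3, 66.6 and 69.8 units in KO control hearts, against 521, 528 and 515 units in WT control hearts (log2 −3.02 ± 0.31 SE, limma adjusted p = 0.000238). Its KO signals were below the median signal of their arrays, and whether they lie above background was not tested. A second probe set read 6.88, 45.2 and 11.1 units in KO, against 191.8, 233 and 219.6 units in WT. Guk1, which makes GDP from GMP, differed by −0.18 ± 0.10 log2 with overlapping arrays, of which WT control replicate 3 was missing. RIKEN symbols were passed over by the rule for named genes, and 2610507I01Rik was named after its values were seen.

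Rab4a, a small GTPase that returns cargo from early endosomes to the cell surface, was the only gene of the 5 on another chromosome. It read 241, 201 and 209 units in KO control hearts, against 773, 754 and 645 units in WT control hearts (log2 −1.67 ± 0.15 SE, 3.18-fold lower, limma adjusted p = 4.29e-05). The second probe set past the filter read 95.1, 179.0 and 176.5 units in KO, against 487, 439 and 459 units in WT, again without overlap. Another probe set, below the filter, overlapped. Rab4a (Entrez 19341) lies on chromosome 8 from 126692115 to 126721377. The gene for skeletal alpha-actin, Acta1, which starts at 126777857 on that chromosome, read 7708, 10040 and 8054 units in KO control hearts, against 17080, 14950 and 15940 units in WT control hearts, and did not pass (log2 −0.90 ± 0.20 SE, limma adjusted p = 0.263). Other close neighbours, Rhou at −0.20 log2, Nup133 at 0.02 and Abcb10 at 0.02, overlapped between the genotypes. In IP hearts Acta1 had the opposite sign, at 0.45 ± 0.20 log2 (SE) with overlapping arrays (limma adjusted p = 0.375).

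**Figure D1:**
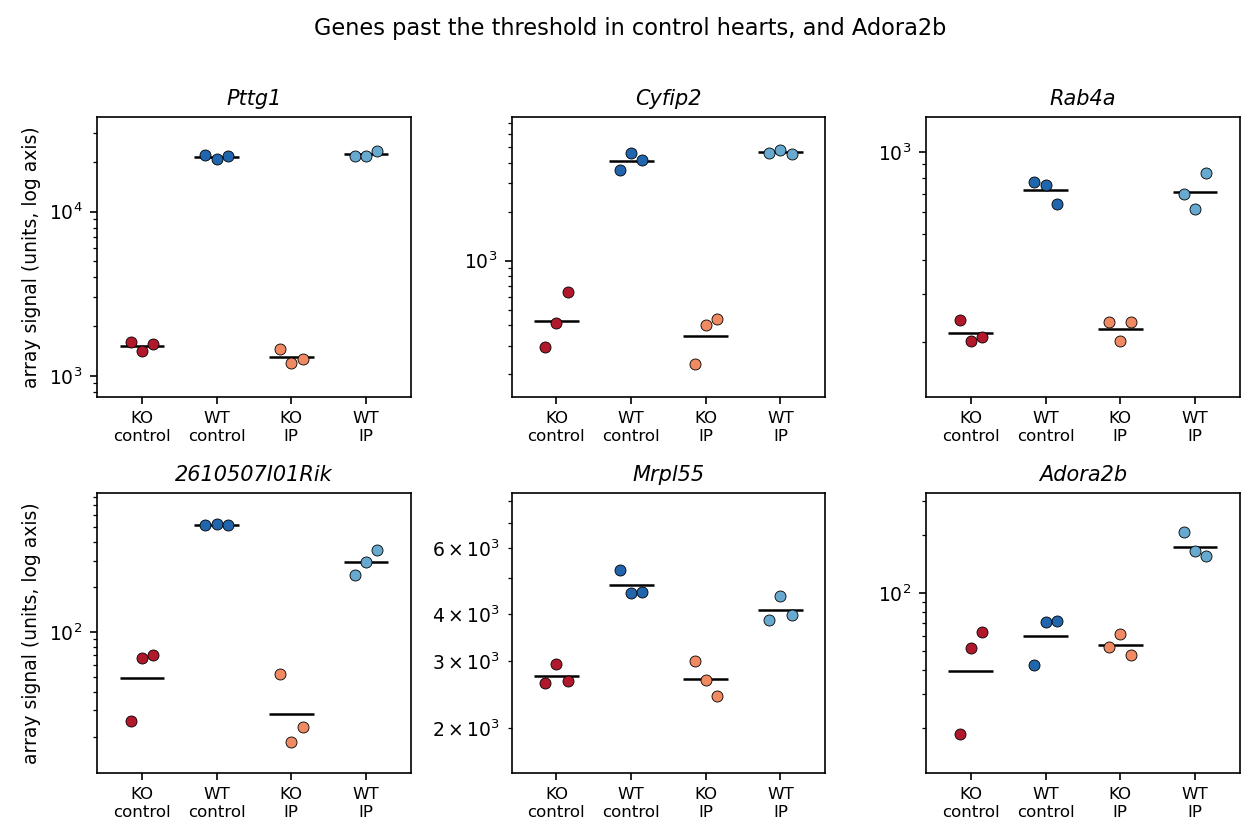
Signal of each array (units, log axis) for the 5 genes past the threshold in control hearts and for Adora2b. Points are the 3 arrays of KO control, WT control, KO IP and WT IP hearts, and bars are geometric means. In the 5 genes all KO arrays lie below all WT arrays in both treatments, whereas Adora2b overlaps in control hearts.

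The promoters of the 3 protein-coding genes on chromosome 11 that were called lower in KO control hearts are shown as a description. The A2B receptor raises cAMP, whose response element is TGACGTCA. Whether cAMP has a part in the levels of these genes was not tested. The windows are 300 bases around the gene start from RefSeq, build GRCm38.p6, in the direction of transcription: Pttg1 at chr11:43425932-43426231 and Cyfip2 at chr11:46312309-46312608 on the minus strand, and Mrpl55 at chr11:59202236-59202535 on the plus strand. These coordinates are of another build or annotation than the authors' table and are not compared with it. Capitals mark TGACG, the core of that element, which reads CGTCA on the opposite strand.
Pttg1: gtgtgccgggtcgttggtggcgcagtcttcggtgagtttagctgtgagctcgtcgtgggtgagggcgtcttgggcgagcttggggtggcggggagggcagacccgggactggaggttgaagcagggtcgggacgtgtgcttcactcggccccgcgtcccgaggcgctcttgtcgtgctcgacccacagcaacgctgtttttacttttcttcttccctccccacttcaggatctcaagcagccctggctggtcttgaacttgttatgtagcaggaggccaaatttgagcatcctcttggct
Cyfip2: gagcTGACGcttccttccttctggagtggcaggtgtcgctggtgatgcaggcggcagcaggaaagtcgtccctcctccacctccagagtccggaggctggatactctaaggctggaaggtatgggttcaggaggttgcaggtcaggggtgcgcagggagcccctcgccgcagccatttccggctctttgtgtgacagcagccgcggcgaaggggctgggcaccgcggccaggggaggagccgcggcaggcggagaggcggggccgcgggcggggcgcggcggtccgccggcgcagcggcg
Mrpl55: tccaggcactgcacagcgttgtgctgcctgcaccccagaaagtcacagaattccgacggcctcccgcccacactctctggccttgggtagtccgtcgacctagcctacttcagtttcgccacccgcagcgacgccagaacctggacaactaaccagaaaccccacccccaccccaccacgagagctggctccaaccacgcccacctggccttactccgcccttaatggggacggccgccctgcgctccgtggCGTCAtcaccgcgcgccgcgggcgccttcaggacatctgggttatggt
The core TGACG was found once each in the windows of Cyfip2 and Mrpl55 and not in that of Pttg1, against 20.8% of the 32851 mouse promoters in the same table (both strands). The full site TGACGTCA, which contains the core, was in none of the 3 windows, against 1.79% of all promoters. CCAAT (37.4% of promoters) and TATAAA (13.6%) were also in none of them. The GC content was 60.3% for Pttg1, 70.7% for Cyfip2 and 64.7% for Mrpl55. Promoters of Rab4a and 2610507I01Rik are not shown.

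The same 5 genes were then read in the IP hearts, which share no array with the control comparison, although one model supplied the spread for both. All 5 passed there too and in the same direction. Pttg1 read 1455, 1190 and 1272 units in KO IP hearts, against 21800, 21820 and 23500 units in WT IP hearts (log2 −4.09 ± 0.08 SE, limma adjusted p = 9.51e-14). Cyfip2 was lower by −3.68 ± 0.24 log2 (adjusted p = 1.05e-06), 2610507I01Rik by −2.77 ± 0.31 (0.000717), Rab4a by −1.60 ± 0.15 (7.15e-05) and Mrpl55 by −0.60 ± 0.10 (0.0255). Without overlap, 2610507I01Rik read 52.6, 18.4 and 23.4 units in KO IP hearts, against 239, 295 and 354 units in WT IP hearts. The test of the difference between the genotype effects in IP and control hearts gave adjusted p-values between 0.598 and 0.960 for these genes. No gene passed that test across the genome: the smallest adjusted p was 0.325, and 1105 genes (7.87%) had an unadjusted limma p below 0.05.

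In IP hearts the arrays of 2755 genes (19.6%) did not overlap between KO and WT, and 16 genes (0.114%) the threshold, 12 of them lower in KO (0.0854%). The 11 that were not called in control hearts had control differences between −0.32 and 0.29 log2. Of these, Ramp1, which pairs with the calcitonin receptor-like receptor, was lower by −1.16 log2 in KO IP hearts and differed by −0.29 log2 in control hearts. Nnt, the mitochondrial proton-pumping transhydrogenase, was lower by −0.51 log2 in KO IP hearts and differed by −0.03 log2 in control hearts, where it read 23280, 23390 and 29100 units in KO, against 26110, 26000 and 24950 units in WT. Tvp23b, a Golgi membrane protein encoded 0.63 Mb from Adora2b, was higher in KO IP hearts (0.59 log2, adjusted p = 0.0485), and in control hearts its arrays read 1710, 1566 and 1542 units in KO, against 1306, 1381 and 1257 units in WT, without overlap (0.29 log2, adjusted p = 0.667). Of the 1709 genes that did not overlap in control hearts, 227 (13.3% of them, 1.62% of all tested) did not overlap in IP hearts in the same direction, and 99 (5.79%) did not overlap in the opposite direction. The 227 held 129 genes (0.919% of all tested) with KO below and 98 (0.698%) with KO above.

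**Figure D2:**
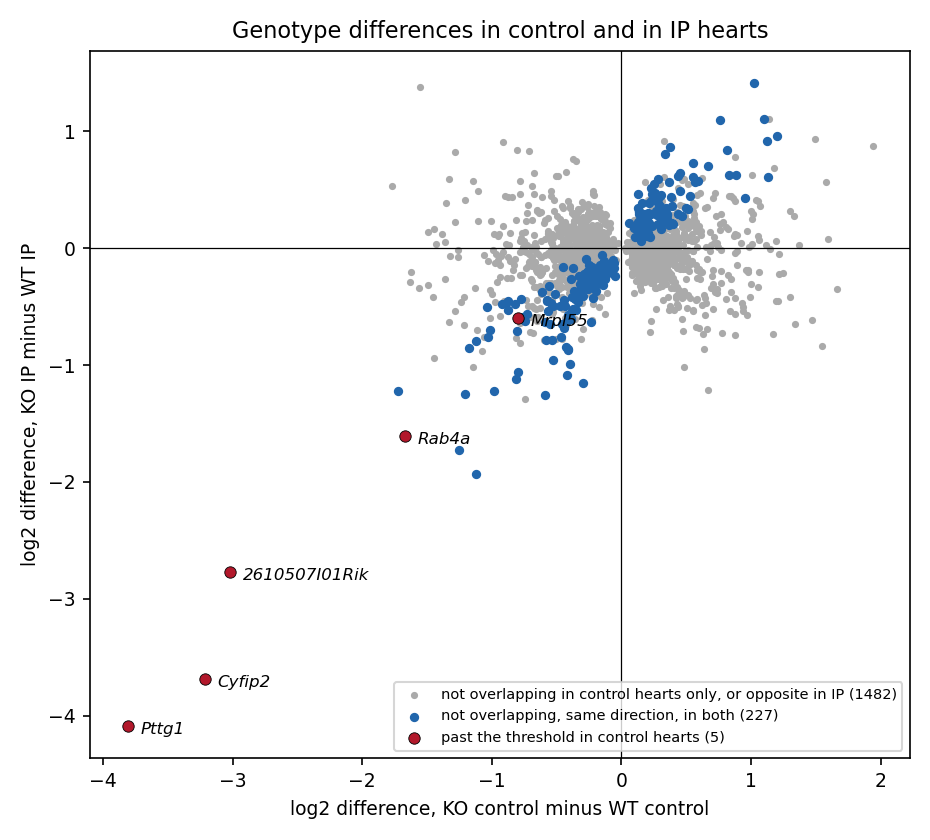
Log2 difference of KO control minus WT control hearts (x axis) against that of KO IP minus WT IP hearts (y axis) for the 1709 genes whose control arrays did not overlap. Blue points are the 227 genes that also did not overlap in IP hearts in the same direction, and red points are the 5 genes past the threshold, of which 4 lie below −1.5 on both axes.

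By position, genes were first binned by their distance from Adora2b with both sides pooled. Within 5 Mb of the gene 29 of 100 tested genes (29%) did not overlap between KO and WT control hearts, and 9 (9.0%) did not overlap in the same direction in IP hearts too. Between 5 and 10 Mb these shares were 10.7% and 2.29% of 131 genes, and between 10 and 20 Mb 11.6% and 3.16% of 190 genes. Farther along chromosome 11 they were 12.6% and 0.997% between 20 and 40 Mb and 11% and 0.867% beyond 40 Mb, and on the other chromosomes 12.0% and 1.47% of 11488 genes. The share in both treatments was thus above that of the other chromosomes in each pooled bin up to 20 Mb, but not evenly. Between 5 and 10 Mb it rested on 3 genes and was below the shares of whole chromosomes 14 (2.54%) and 15 (3.22%). Of the 6 such genes between 10 and 20 Mb, 4 lay 15 to 20 Mb away on the low side. The share in control hearts alone was above that of the other chromosomes within 5 Mb and not between 5 and 20 Mb. Neighbouring genes share a chromosome and a mouse line and are not replicates, so the shares are given as a description.

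The sides of Adora2b were then read apart, with no test between them. On the low side 40 of 174 genes (23%) within 20 Mb did not overlap in control hearts, and 14 (8.05%) did so in both treatments, against 25 of 246 (10.2%) and 4 (1.63%) on the high side. Within 5 Mb the sides were closer. The 75 low-side genes there had 23 (30.7%) without overlap in control hearts and 7 (9.33%) in both treatments. The 25 high-side genes had 6 (24%) and 2 (8.0%). Between 5 and 10 Mb on the high side the counts were 9 of 97 (9.28%) and 0. Of the low-side genes the 21 that lie 15 to 20 Mb away, where Pttg1 and Cyfip2 are, had 7 (33.3%) without overlap in control hearts and 4 (19%) in both treatments, above the shares within 5 Mb but over few genes. The 44 genes between 10 and 15 Mb away on that side had 5 (11.4%) and 0. All 3 called genes with a position on chromosome 11 were on the low side.

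**Figure D3:**
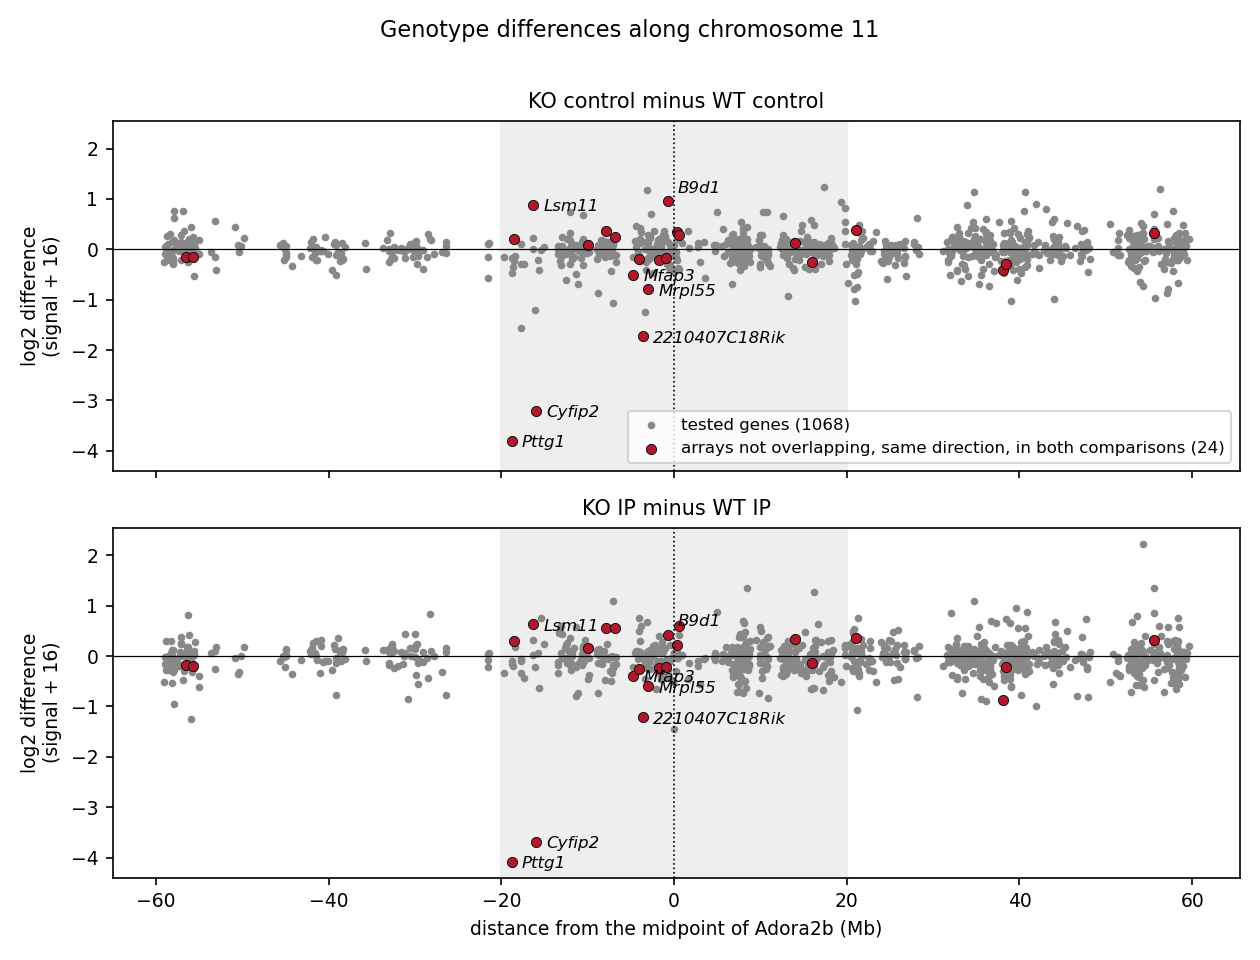
Log2 difference of each of 1068 genes on chromosome 11 against its distance from the midpoint of Adora2b (Mb), for KO control minus WT control (top) and KO IP minus WT IP hearts (bottom). Red points are the 24 genes whose arrays did not overlap in the same direction in both treatments, and grey shading marks 20 Mb on either side. 2610507I01Rik has no position in the authors' table and is not drawn. The 2 lowest points, Pttg1 and Cyfip2, lie between 15 and 20 Mb to the low side.

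**Figure D4:**
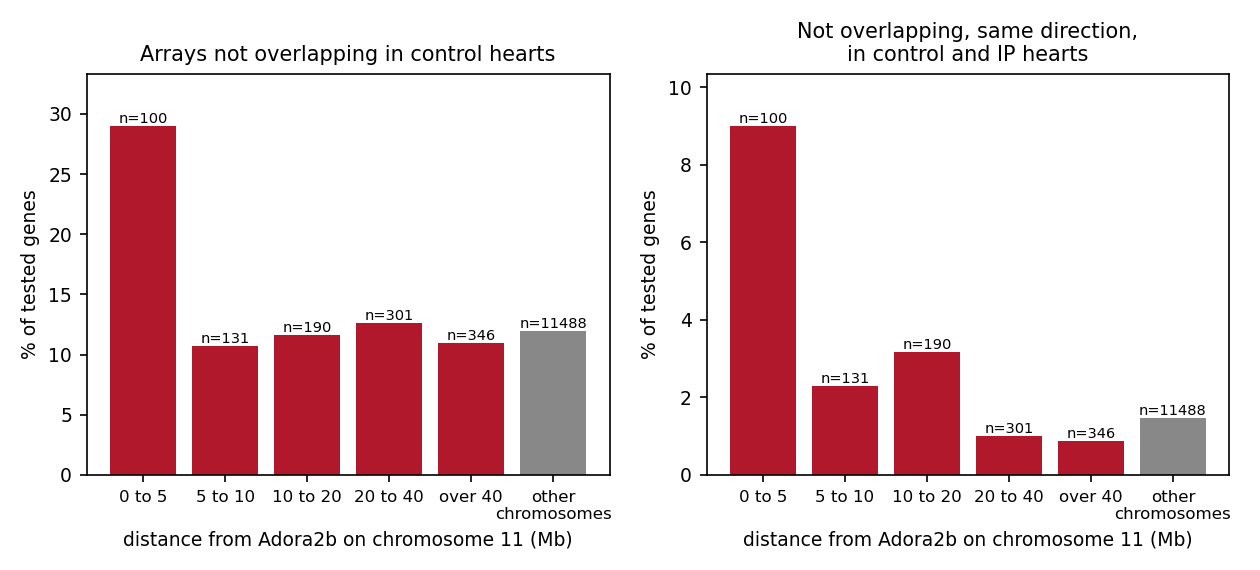
Share of tested genes (%) whose KO and WT control arrays did not overlap (left) and whose arrays did not overlap in the same direction in both treatments (right), by distance from Adora2b on chromosome 11 and for the other chromosomes, with the number of genes tested over each bar. The bars within 5 Mb stand at 29% and 9.0%, against 12.0% and 1.47% on the other chromosomes.

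In windows of 10 Mb over the genome, 2 of 274 windows held 5 or more genes without overlap in the same direction in both treatments. Both were on chromosome 11: 7 of 105 genes (6.67%) between 50 and 60 Mb and 5 of 114 (4.39%) between 60 and 70 Mb. The share over all tested genes was 1.62%. A further 4 windows held 4 such genes. They lay between 40 and 50 Mb on chromosome 11 (of 41 genes, 9.76%) and between 30 and 40 Mb on chromosome 19 (of 52, 7.69%). On chromosome 15 they lay between 70 and 80 Mb (of 120, 3.33%) and 80 and 90 Mb (of 101, 3.96%). In 155 windows there was none. The windows held unlike numbers of tested genes, and some smaller ones had higher shares. Examples were 3 of 29 genes (10.3%) between 150 and 160 Mb on chromosome 3 and 3 of 29 between 0 and 10 Mb on chromosome 8. By whole chromosome the share in both treatments was 2.25% on chromosome 11, and it was 3.22% on chromosome 15, 2.54% on chromosome 14 and 2.43% on chromosome 16, so that the whole of chromosome 11 did not stand out.

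The 18 genes within 20 Mb of Adora2b that did not overlap in the same direction in both treatments comprised 9 with KO below and 9 with KO above. With KO below, beside Pttg1, Cyfip2 and Mrpl55, 2210407C18Rik read 228, 183 and 131 units in KO control hearts, against 370.1, 535.5 and 1195 units in WT control hearts (log2 −1.73 ± 0.32 SE, limma adjusted p = 0.122). It was named after its values were seen and, of the genes near Adora2b, came closest to the threshold. Mfap3, a microfibril-associated protein, read 746, 711 and 745 units in KO, against 980.0, 1109 and 1079 units in WT (−0.51 ± 0.10, adjusted p = 0.171). Both had the same direction and no overlap in IP hearts, at −1.22 and −0.39 log2. Mrpl22, another protein of the large mitochondrial ribosomal subunit, the RNA demethylase Alkbh5 and the organic cation exporter Slc47a1 differed by −0.19, −0.21 and −0.17 log2, and Tlcd1 by −0.25.

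With KO above, B9d1, a protein of the ciliary transition zone encoded at −0.75 Mb from Adora2b, read 319.7, 333.6 and 325.3 units in KO control hearts, against 157.3 and 164.8 units on the 2 usable WT control arrays (log2 0.95 ± 0.18 SE, limma adjusted p = 0.160). Lsm11, a component of the U7 particle that processes histone mRNA, read 271, 198 and 195 units in KO, against 84.3, 175 and 92.6 units in WT (0.88 ± 0.26, adjusted p = 0.498). Acsl6, which activates fatty acids, differed by 0.37 ± 0.11, Sparc, a secreted matrix protein, by 0.25 ± 0.11 and the cation channel Trpv2 by 0.35 ± 0.22 log2. Sparc and Trpv2 also lacked WT control replicate 3, and 2 arrays separate from 3 more readily than 3 do. Ttc1, Skp1 and Mrm3 differed by 0.20, 0.10 and 0.13 log2. None of the 9 passed the threshold in control hearts.

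At the level of single probe sets, 13 passed an adjusted p below 0.05 when p-values were adjusted over all probe sets, 12 lower and 1 higher in KO. They included all 3 probe sets of Pttg1 and 2 each of Cyfip2, Rab4a and 2610507I01Rik. They also included 1 probe set each of Rnf187, a ubiquitin ligase (log2 −0.58 ± 0.08, adjusted p = 0.0119), and of the histone gene H2aw (−1.12 ± 0.15, adjusted p = 0.0111), which lie at 58748459 and 58770880 on chromosome 11 next to the group of Mrpl55. The brightest probe sets of these genes differed less, by −0.20 ± 0.07 for Rnf187 and −0.41 ± 0.15 for H2aw, with adjusted p-values of 0.632 and 0.656, so that their probe sets disagreed in size though not in direction. The probe set that passed with KO above was one of Ide.

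In the authors' deposited table for the same contrast, 969 of 45037 probe sets (2.15%) had a decision other than 0, 219 higher and 750 lower in KO. A set of 38 of them (0.0844%) in the authors' deposited table also changed at least 2-fold, 12 higher and 26 lower. The positions in that table place 10 of the 38 probe sets on chromosome 11, among them several each of Pttg1, Cyfip2 and Socs3. The 38 carry 24 distinct symbols, so some genes count more than once. Both probe sets of 2610507I01Rik, which has no position there, were also among the 38. Of the 12556 genes tested here that have a position, 1068 were on chromosome 11, a count of genes and not of probe sets. All 38 probe sets had the same sign in the values computed here, and 10 of them passed a limma adjusted p below 0.05 over all probe sets. The same arrays gave both sets of values and the 38 were picked by their change, so the shared sign is no separate check. The labels do not state the test or correction behind the decisions.

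The genes closest to the threshold with KO above were outside chromosome 11. Ide, the insulin-degrading protease, on chromosome 19, read 4794, 3918 and 4938 units in KO control hearts, against 2238, 2275 and 3194 units in WT control hearts (log2 0.83 ± 0.14 SE, limma adjusted p = 0.0667). A second bright probe set read 4608, 3481 and 5110 units in KO, against 1865, 2334 and 3242 units in WT. Of its 5 probe sets past the filter 4 did not overlap, and the other read 585.6, 861.7 and 647.0 units in KO, against 557.3, 665.7 and 638.9 units in WT, and overlapped (log2 0.15, limma adjusted p = 0.956 over all probe sets). In IP hearts Ide differed by 0.63 ± 0.14 log2, again without overlap (adjusted p = 0.0913). Errfi1, a feedback inhibitor of the EGF receptor, on chromosome 4, read 6697, 8042 and 10580 units in KO control hearts, against 5064, 3451 and 3911 units in WT control hearts (1.02 ± 0.17, adjusted p = 0.0677), and its IP arrays overlapped at 0.29 ± 0.17 log2. Eny2, a subunit of chromatin and mRNA export complexes, read 1844, 1645 and 1684 units in KO, against 1130, 1176 and 1178 units in WT (0.56 ± 0.10, adjusted p = 0.122). Ide passed when KO replicate 2 or WT replicate 3 was left out, and its limma adjusted p over all settings tried was between 0.00355 and 0.413. Errfi1 passed when KO replicate 1 or WT replicate 1 was left out, and its range was 0.0225 to 0.413.

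Lists of genes for pathways and cell types were then read in the same fit. The 32 lists held 428 distinct tested genes. None passed an adjusted p below 0.05 by limma, and the smallest adjusted p was 0.259. At an unadjusted p below 0.05 there were 55 (12.9%), against 6.59% of all genes tested. Median log2 differences of the lists were between −0.38 and 0.37, against −0.0024 over all genes.

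The circadian clock list had the most members at an unadjusted limma p below 0.05, 9 of 19, against 6.59% of all genes tested. Of the 9 genes, 6 were higher and 3 lower in KO control hearts. None passed an adjusted p below 0.05. The clock turns over within a day, with the activators Arntl and Clock driving the repressors of the Per and Cry families and the output factors Dbp, Tef and Hlf. Clock read 1238, 883 and 1343 units in KO, against 1757, 1579 and 1589 units in WT (log2 −0.52 ± 0.14 SE, limma adjusted p = 0.455). Arntl, the partner of Clock, read 227, 192 and 719 units in KO, against 847, 779 and 762 units in WT, and Nfil3, a repressor that opposes the output factors, 373, 284 and 746 units in KO, against 759, 821 and 1092 units in WT. All KO arrays of these 3 genes lay below all WT arrays.

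The output factors and the Per and Cry repressors among these 9 genes stood on the other side. The 9 were picked by their p, and over all 19 genes of the list 12 were higher and 7 lower in KO. Dbp read 3479, 6675 and 1976 units in KO control hearts, against 1004, 2390 and 586.7 units in WT control hearts, and Per2 315, 579 and 62.3 units in KO, against 87.3 and 35.6 units on the 2 usable WT arrays. Per3 read 321, 468 and 182 units in KO, against 88.1, 169 and 120 units in WT. Tef read 2258, 2543 and 1252 units in KO, against 1003, 1240 and 1139 units in WT, and Cry2 537, 747 and 419 units in KO, against 294, 412 and 265 units in WT. Per3, Tef and Cry2 did not overlap, and Dbp, Per2 and Hlf (0.62 log2) did. In each of the 9 genes KO replicate 3 was the KO array nearest to the WT arrays. Without KO replicate 3 the count was 13 of 19 (7.85% of all genes) and Nfil3 passed. Without KO replicate 2 it was 4 of 19 (5.24% of all genes). In IP hearts all 9 genes had the opposite sign, among them Dbp at −1.65 log2, and none passed the test of the difference between treatments. The labels do not state the hour at which hearts were taken.

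**Figure D5:**
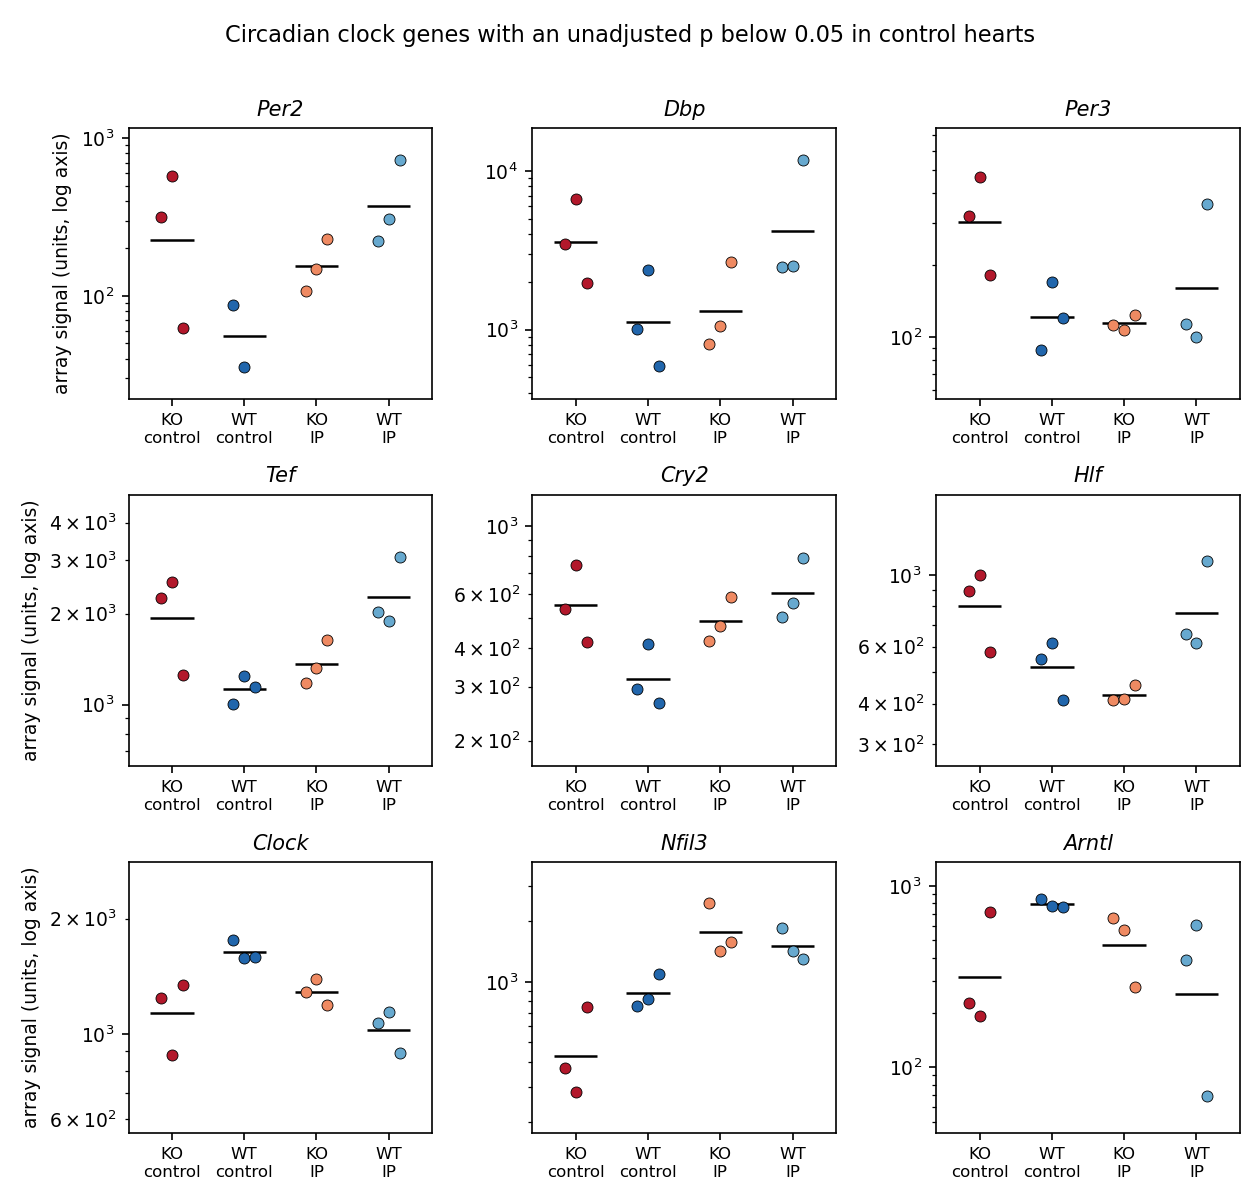
Signal of each array (units, log axis) for the 9 circadian clock genes with an unadjusted p below 0.05 between KO and WT control hearts, ordered from the highest to the lowest log2 difference. Points are the arrays of KO control, WT control, KO IP and WT IP hearts, bars are geometric means, and Per2 has 2 usable WT control arrays. KO control replicate 3, the right-hand red point, is the nearest of the KO control arrays to the WT control arrays in each panel.

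Of the 25 tested cytokines and adhesion molecules, 8 had an unadjusted limma p below 0.05, 5 higher and 3 lower in KO. The share over all genes tested was 6.59%. This list had the highest median log2 difference, 0.37. None passed an adjusted p below 0.05. Selp, the P-selectin of activated endothelium and platelets, read 23.2, 33.9 and 12.3 units in KO control hearts, against 38.5, 84.9 and 124 units in WT control hearts (log2 −1.26 ± 0.28 SE, limma adjusted p = 0.259). The difference of Selp was −0.37 log2 with the mean of all its probe sets (limma adjusted p = 0.817). Socs3, a feedback inhibitor of cytokine receptors, read 314, 184 and 466 units in KO, against 503, 581 and 750 units in WT (−0.97 ± 0.26). Nfkbia, the inhibitor of NF-kB that NF-kB itself induces, read 15490, 16830 and 14410 units in KO, against 12100, 9675 and 13870 units in WT (0.40 ± 0.10). The eosinophil chemokine Ccl11 differed by 0.82 ± 0.26 log2. Neutrophil markers were high on 1 WT array: their signals over 10 genes summed to 1701, 2805 and 2100 units in KO control hearts, against 1736, 1330 and 9424 units in WT control hearts. S100a8 and S100a9 made up most of the excess on WT replicate 3, with 2959 and 4814 units there. The monocyte and macrophage markers summed to 16258, 16165 and 18248 units in KO, against 15872, 17879 and 25001 units in WT. Their part in the values of the cytokine list was not tested.

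In other lists, 4 of 30 immediate-early genes had an unadjusted limma p below 0.05, all higher in KO. Over all genes tested the share was 6.59%, with 3.15% higher and 3.45% lower, and no difference from it was tested. Ier3, an early gene of stress and growth factors, read 2686, 2916 and 2296 units in KO control hearts, against 1435, 1914 and 1554 units in WT control hearts (log2 0.69 ± 0.17 SE, limma adjusted p = 0.324). Of 12 MHC genes 2 did, both of class II: H2-Ab1 read 1152, 832 and 1243 units in KO, against 568, 750 and 786 units in WT (0.60 ± 0.16, adjusted p = 0.448), and H2-Eb1 differed by 0.47 ± 0.18. Of 15 genes of the antioxidant response 5 did, 2 higher and 3 lower, led by the quinone reductase Nqo1 at 0.40 ± 0.11. Of 16 heat shock genes 3 did, all lower, led by the mitochondrial chaperonin Hspe1 at −0.26 ± 0.09. None of these passed an adjusted p below 0.05.

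Counts in lists tied to the receptor's own signalling are read beside the 6.59% of all genes at an unadjusted limma p below 0.05. These lists are short, and a difference from that share was not tested. Of 14 tested genes of cAMP signalling 1 had an unadjusted p below 0.05, the phosphodiesterase Pde3b at −0.55 ± 0.24 log2 (limma adjusted p = 0.740), and the list's median was −0.004. Of 12 genes for making, moving and clearing adenosine 2 did, Nt5e, a surface enzyme that converts AMP to adenosine, at −0.65 ± 0.27 and the alkaline phosphatase Alpl at −0.35 ± 0.15. Among ion channels and calcium handling genes 2 of 18 did. One was Kcne1, the accessory subunit of a repolarising potassium channel, which read 69.6, 93.0 and 142 units in KO control hearts, against 216, 191 and 222 units in WT control hearts (−0.98 ± 0.24, adjusted p = 0.362). Its arrays did not overlap in IP hearts either, at 109, 102 and 82.1 units in KO, against 298, 276 and 185 units in WT (−1.23 ± 0.24, adjusted p = 0.0710).

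Energy and contraction genes are read beside the same share of all genes, 6.59%, again with no test of a difference from it. Of 18 glycolysis genes 2 had an unadjusted p below 0.05, of 24 tested members of the TCA cycle and respiratory chain 1 did, and of 22 fatty acid oxidation genes and 15 interferon-stimulated genes none did. The medians of these 4 lists were between −0.07 and 0.06 log2. Of 22 cardiomyocyte genes 1 did, Tcap, a cap of the sarcomere's titin, at 0.30 ± 0.13. Acta1, given above beside Rab4a, was the only one of 12 cardiac stress genes at an unadjusted p below 0.05. Nppa, the atrial natriuretic peptide, read 10610, 10690 and 13480 units in KO control hearts, against 19210, 13720 and 13970 units in WT control hearts, without overlap (−0.42 ± 0.20, adjusted p = 0.757). No gene of the endothelial, fibroblast, epicardial, lymphocyte, adipocyte, erythroid or nerve lists had an unadjusted p below 0.05. These lists were short, from 2 tested genes for adipocytes to 16 for endothelium, so that a count of 0 says little.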

How the data were processed

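RNA of left ventricle was measured on 12 expression arrays, 3 per genotype and treatment. The deposited values are intensity signals per probe set, made with MAS5 per the submitters' processing notes; version and scaling target are not stated there. The authors' deposited table adds a log2 difference per contrast and a decision score of −1, 0 or 1. Of 45101 probe sets, 64 controls were left out; 40137 of the rest had 1 symbol, 1232 several and 3668 none, and 36287 symbols were matched to RefSeq by Entrez number. An unbroken run of 1425 zeros on WT control replicate 3 was set to missing, since those probe sets had a median of 639.4 units on the other arrays. Runs of at least 100 zeros were treated so.

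Signals were taken as log2(signal + 16). Probe sets above the 40th percentile of mean signal (27022) were kept, and the brightest stood for each gene, giving 14044 genes, 1488 of them without a position. One limma 3.58.1 model (R 4.3.3; 8 residual degrees of freedom, intensity trend, no covariate) over all 12 arrays gave each contrast, with Benjamini-Hochberg adjustment over all genes. The script was tested on simulated data. Arrays were said not to overlap when all KO values lay on one side of all WT values. The control and IP comparisons share no array. Signal above background was not tested, and no batch is given in the labels.

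The groups compared, the gene lists and the rule for named genes were chosen with earlier results of these data known. The rule named every gene past the threshold, the adenosine receptors and, for each list, the member with the smallest p, and passed over RIKEN symbols; genes near the threshold or near Adora2b, and further list members, were added after their values were seen. Same-numbered KO and WT control arrays did not deviate together (correlations −0.015, −0.056 and −0.004), so replicate numbers were not used as pairs. Promoters are RefSeq's, GRCm38.p6. In all, 19 alternatives were tried, some of them added after seeing the data.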

Additional observations from a re-analysis of the deposited data

How the results depend on the processing

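The count of 5 genes past the threshold was 5 to 9 when 1 control array was left out, with 9 without KO replicate 3 (Nfil3, Adam19, Irs1 and 1110067B18Rik added) and 9 without WT replicate 1 (Errfi1, Selp, Defcr-rs2 and 2210407C18Rik added). Pttg1, Cyfip2, Rab4a and 2610507I01Rik were called under all 19 alternatives, and Mrpl55 under all but the fit with no intensity trend (adjusted p = 0.0609). That fit called 4 genes. With the replicate block 6 genes were called, Ide being added (limma adjusted p = 0.00757), and the block changed no other call; the numbers are not pairs. The gene lists held 0 called members, but 1 with only the 6 control arrays (Acta1, adjusted p = 0.0128) and 0 to 1 without 1 array. Selp differed by −1.64 log2 without WT replicate 1 (adjusted p = 0.0128), by −0.71 with log2(signal + 64) (0.422) and by −0.37 when its probe sets were averaged (0.817), and its adjusted p over the alternatives was 0.0128 to 0.817. The clock count of 9 was 4 without KO replicate 2 and 13 without KO replicate 3, an alternative chosen after seeing the data. Signs turned for Acta2, at 2.64 log2 (−0.51 otherwise) when the zeros were kept, since WT replicate 3 then enters as 0, and for Hba-a1, which ranged from −0.022 without WT replicate 1 to 0.37 without WT replicate 3. Adora2b was dim on all control arrays, and whether its signal lies above background was not tested.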

Other observations

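Wdfy1, an endosomal protein whose level is known to vary among inbred mouse strains, read 467.5, 217.6 and 162.0 units in KO control hearts, against 1018, 681.5 and 419.6 units in WT control hearts, with overlapping arrays (log2 −1.32, limma adjusted p = 0.515).

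The 1488 genes with no position in the authors' deposited table held 34 whose KO and WT arrays did not overlap in the same direction in both treatments (2.28%), and 31 of these had KO below and 3 KO above. Among the 11488 genes placed on chromosomes other than 11 the share was 1.47%, with 85 genes KO below and 84 KO above. In control hearts the genes with no position had a lower median log2 difference as a whole, −0.061 against 0.002. Their median absolute difference was larger, 0.211 against 0.119. The difference in direction was not tested.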
